A study of Mus musculus with 6 samples.

Results

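The genes described here encode matrix proteins of the inner ear, and were chosen by name, as *Coch*, *Otos*, *Otor*, *Tecta*, *Tectb*, *Ceacam16*, *Otog*, *Otoa*, *Oc90* and *Emilin2*. Of these 10 genes, 9 had a probe under their symbol on the array, with 12 probes among the 25697 of the array. *Otog* had none under its symbol and is not analysed here. The samples were cochlear tissues at 12 months of age, 3 WT and 3 *Cmah*-null, and each was hybridized to 1 Illumina MouseRef-8 array. The strain was C57BL/6 in the labels and C57BL/6J in the study's methods. *Cmah*-null mice lack CMP-Neu5Ac hydroxylase, the enzyme that makes the sialic acid Neu5Gc. The comparison asked which cochlear transcripts differ in old mice without the enzyme. The study's methods give 3 mice per group, and their sex is not given in the sources used here. The array is a bulk measurement, in which fewer cells of a type and less RNA per cell cannot be told apart.

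The tectorial membrane is an extracellular gel that lies over the hair cells of the cochlea. Its non-collagenous part is built from alpha-tectorin (*Tecta*), beta-tectorin (*Tectb*), otogelin (*Otog*) and the adhesion protein *Ceacam16*, while otoancorin (*Otoa*) holds the membrane to the spiral limbus. Cochlin (*Coch*), otospiralin (*Otos*) and otoraplin (*Otor*) are secreted proteins of the fibrocytes and mesenchyme of the cochlear wall and limbus. Otoconin (*Oc90*) is the main protein of otoconia, the crystals of the vestibular organs. *Emilin2* is a glycoprotein of elastic fibres that is also found in the basilar membrane. Loss of many of these proteins is a known cause of deafness or imbalance in mice or humans.

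Between 13873 and 15223 probes passed a detection p of 0.05 against the negative controls of their array. The most similar arrays were *Cmah*-null replicates 1 and 2. Their log2 differences had an SD of 0.14 over the 12410 probes detected on all 6 arrays, against 0.39 to 0.85 for the other pairs. If these arrays are not independent samples, the SDs of the *Cmah*-null group and the standard errors and p values in limma may be too small. The *Cmah* probe was above background on 1 array of the WT group and on 2 of the other group, so it gives no check of genotype. In the deposited tables the second group is named "old", and its columns were matched to the *Cmah*-null samples by replicate number. Of the genes that define the list for the spiral ligament and limbus, *Aqp1* was detected on all 6 arrays, *Pou3f4* on 5 and *Tbx18* on 2. The gap junction genes *Gjb2* and *Gjb6* of this list were detected on all 6 arrays. Their log2 signals were 11.57 to 13.39 and 12.50 to 13.29, and whether these came from the cochlea alone was not tested. Of the hair cell genes, *Myo7a* was detected on all 6 arrays and *Pou4f3* and *Slc26a5* (prestin) on none. Genes of neighbouring tissues were also present. The skeletal muscle list had a summed signal of 233086 to 376651 on WT and 246221 to 256552 on *Cmah*-null arrays, with all 10 genes detected on all 6 arrays. Its part in the results below was not tested.

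Probe sequences are shown for 3 genes. *Ceacam16* and *Otoa* were each measured by a pair of probes on the same transcript, and *Otos* by a single probe. Of the *Otoa* pair, only the probe that was detected on no array is shown. The *Otoa* fold change given below is that of the other probe, ILMN_2735754. The sequences are those of the deposited annotation, 5′ to 3′, in lower case with no part singled out.
Ceacam16, probe ILMN_1225476, from base 1318 of the transcript: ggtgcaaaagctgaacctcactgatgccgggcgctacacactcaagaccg
Ceacam16, probe ILMN_2981536, from base 1041 of the transcript: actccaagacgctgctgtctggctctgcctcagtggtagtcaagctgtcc
Otoa, probe ILMN_2669750, from base 991 of the transcript: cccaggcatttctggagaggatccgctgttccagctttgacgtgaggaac
Otos, probe ILMN_2683305, from base 470 of the transcript: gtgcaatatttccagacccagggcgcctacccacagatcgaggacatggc
Each of these probes is 50 bases long. Both *Ceacam16* probes have a GC content of 58%, as does the *Otos* probe, and the *Otoa* probe shown has 56%. The annotation places *Ceacam16* on chromosome 7 (band 7qA3), *Otoa* on chromosome 7 (band 7qF2) and *Otos* on chromosome 1 (band 1qD). It does not name its genome build, so no coordinates are given.

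No difference between *Cmah*-null and WT cochleae passed the test in any of the 12 probes. In limma, with Benjamini-Hochberg adjustment over all 25697 probes, 0 of the 12 had an adjusted p under 0.05 and 0 had an unadjusted p under 0.05. The adjusted p values lay between 0.630 and 0.984. The smallest adjusted p of all probes on the array was 0.250, and 8.56% of all probes had an unadjusted p under 0.05. The threshold used for calls, 1.5-fold with an unadjusted p under 0.05, was passed by 0 of the 12, where 2.71% of all probes and 5.15% of the probes detected on all 6 arrays passed it. The groups overlapped in all 12, while 16.4% of all probes had groups that did not overlap. A count of 0 of 12 is near a share of 2.71%. The median log2 fold change of the 12 was 0.04, against 0.00 for all probes, and 8 had a higher mean in *Cmah*-null mice and 4 a lower one. Of the 12, 3 exceeded 1.5-fold in the mean, against 5.95% of all probes, namely the brighter probes of *Coch* and *Ceacam16* and the probe of *Otos*. The limits given with a fold change are its 95% interval in limma. The smallest p that an exact permutation test of 3 against 3 arrays can give is 0.1, and no probe reached it.

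**Figure D1:**
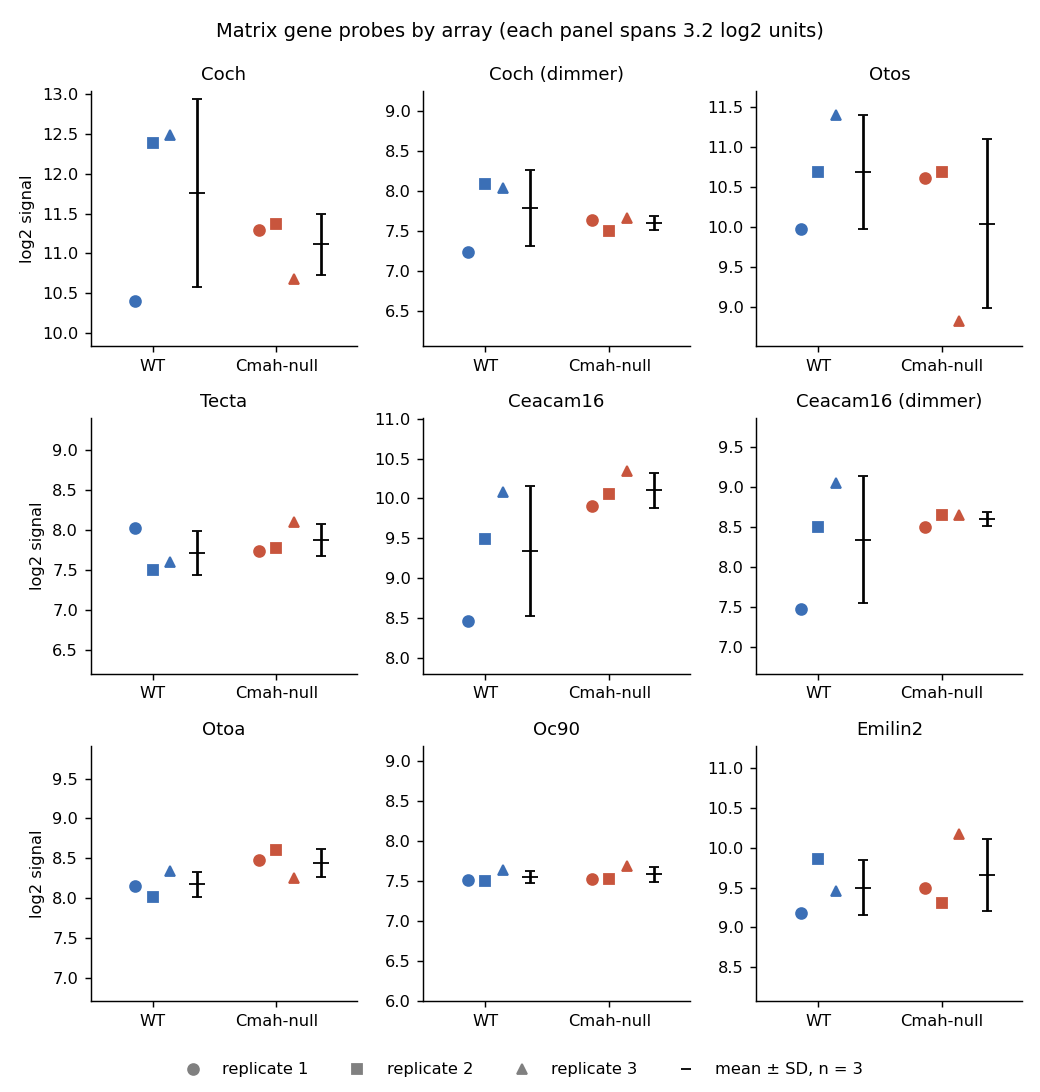
Normalized log2 signal (y axis) of the 9 probes detected on at least 3 arrays, in WT (blue) and *Cmah*-null (red) cochleae. Each point is 1 array, with its replicate number given by the marker, and the bar is the mean ± SD (n = 3). *Coch*, *Otos* and *Ceacam16* spread widely and *Oc90*, which lay near background, stays within 0.19 log2 units on the 6 arrays. The groups overlap in every panel.

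Among the proteins of the fibrocytes and mesenchyme, *Coch* varied more between arrays of the same genotype than between the genotypes. Its brighter probe (ILMN_2919201, chromosome 12, band 12qC1) had log2 signals of 10.40, 12.39 and 12.48 on WT arrays 1, 2 and 3, and 11.29, 11.37 and 10.68 on the *Cmah*-null arrays. WT replicate 1 was the lowest of the 6 arrays, and the other WT arrays were above every *Cmah*-null array. The WT mean was 11.75 ± 1.17 (SD, n = 3) and the *Cmah*-null mean 11.11 ± 0.38 (SD, n = 3). The log2 fold change was -0.64 (SE 0.59, limma adjusted p = 0.786), with limits of -2.11 and 0.82. Leaving out WT replicate 1 turned this into -1.32 (SE 0.24, limma adjusted p = 0.249), which passed the threshold of 1.5-fold with an unadjusted p. The call on *Coch* thus depended on that array. The fold change shrank to -0.33 without WT replicate 2, -0.28 without WT replicate 3 and -0.42 without *Cmah*-null replicate 3. It was -0.15 under median scaling, in which arrays are brought to the same median, and -0.41 with the number of beads per probe as a block.

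The second *Coch* probe (ILMN_2755676) was dim, and was detected on 2 WT and 2 *Cmah*-null arrays. Its log2 signals were 7.23, 8.08 and 8.04 in WT and 7.63, 7.50 and 7.66 in *Cmah*-null mice. As with the brighter probe, WT replicate 1 was lowest and the other WT arrays were highest. The log2 fold change was -0.19 (SE 0.24, limma adjusted p = 0.851). It was -0.44 with background correction by neqc, -0.11 under median scaling and -0.03 with the bead number block. Leaving out WT replicate 1, 2 or 3 gave -0.46, -0.04 or -0.06.

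For *Otos*, a single *Cmah*-null array stood far below the rest, and the genotype difference was within the spread. The log2 signals were 9.98, 10.69 and 11.40 in WT and 10.62, 10.69 and 8.82 in *Cmah*-null mice. *Cmah*-null replicate 3 was the lowest array and WT replicate 1 the next lowest. The means were 10.69 ± 0.71 (SD, n = 3) and 10.05 ± 1.06 (SD, n = 3), and the log2 fold change was -0.65 (SE 0.61, limma adjusted p = 0.792), with limits of -2.16 and 0.87. Without *Cmah*-null replicate 3 the log2 fold change was -0.03, without WT replicate 3 it was -0.29, and without WT replicate 1 it was -1.0. Under median scaling it was -0.21. Before normalization, on the linear scale, the *Otos* signals were 1076, 1301 and 1936 in WT and 2250, 2185 and 379 in *Cmah*-null mice. *Cmah*-null replicates 1 and 2 were thus the brightest before normalization and lay within the range of the WT arrays after it.

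*Otor*, the secreted relative of the cartilage protein *Mia1*, was detected on none of the 6 arrays (probe ILMN_2652615, chromosome 2, band 2qG1). Its log2 signals lay between 7.11 and 7.32, and no fold change is given. *Mia1* itself was detected on all 6 arrays, with 9.68, 9.98 and 10.25 in WT and 10.36, 10.41 and 8.87 in *Cmah*-null mice. *Cmah*-null replicate 3 was the lowest array for *Mia1*, as it was for *Otos*.

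Of the tectorial membrane proteins, *Ceacam16* had the largest difference among the members in the deposited values, and it was within the spread of the WT arrays. With *Cmah*-null replicates 1 and 2 averaged, *Otos* moved further (-0.95 against 0.82), as did *Coch* without WT replicate 1 (-1.32 against 0.32). The brighter *Ceacam16* probe (ILMN_1225476) had log2 signals of 8.47, 9.49 and 10.08 in WT and 9.91, 10.06 and 10.34 in *Cmah*-null mice. Only WT replicate 3 reached the level of the *Cmah*-null arrays. The means were 9.35 ± 0.81 (SD, n = 3) and 10.10 ± 0.22 (SD, n = 3), and the log2 fold change was 0.76 (SE 0.41, limma adjusted p = 0.664), with limits of -0.25 and 1.76. The second probe (ILMN_2981536) had 7.48, 8.50 and 9.05 in WT and 8.50, 8.65 and 8.65 in *Cmah*-null mice. It ordered the WT arrays in the same way, but here WT replicate 3 was above all *Cmah*-null arrays. Its log2 fold change was 0.26 (SE 0.39, limma adjusted p = 0.875). Without WT replicate 1 the brighter probe had a log2 fold change of 0.32 and the second probe one of -0.18, while without WT replicate 3 they had 1.12 and 0.61. Both probes were lowest on WT replicate 1, and the sign of the second depended on that array. With neqc they had 0.96 and 0.63, and the second had 0.51 under median scaling and 0.49 with the bead number block.

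The sums of the epidermis, pituitary and hair cell lists were lowest on WT replicates 1 and 2, as was the brighter *Ceacam16* probe. These lists are named here for that likeness, so it is no independent result. The hair cell sums, background signals included, were 3855, 3638 and 4035 in WT and 4258 to 5763 in *Cmah*-null mice. They were highest on *Cmah*-null replicate 3 (5763), as was the brighter *Ceacam16* probe. The epidermis list, of which 5 of 7 genes were on the array and all 5 were detected on all 6 arrays, had summed signals of 31193, 45352 and 124450 in WT and 105917 to 110027 in *Cmah*-null mice. WT replicates 1 and 2 were thus the lowest for this list as for the brighter *Ceacam16* probe. Its defining keratins *Krt5* and *Krt10* had log2 signals of 8.54, 8.37 and 9.47, and of 11.73, 12.86 and 14.29, on the WT arrays. The pituitary list, with 2 of 6 genes detected on all 6 arrays, had 1499, 1506 and 28049 in WT and 14484 to 17680 in *Cmah*-null mice. Prolactin (*Prl*) had log2 signals of 8.04, 8.13 and 14.22 in WT and 13.66, 13.62 and 12.35 in *Cmah*-null mice. For the epidermis and pituitary lists the likeness was partial. *Cmah*-null replicate 3, the highest of the 6 arrays for the brighter *Ceacam16* probe, was the lowest of its group for *Krt5* (8.91) and *Prl*. It was the highest of its group for *Krt10* (14.85). The part of these tissues and of hair cells in the *Ceacam16* values was not tested.

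The *Ceacam16* difference depended on the scaling of the arrays. Before normalization the brighter probe had linear signals of 378, 598 and 806 in WT and 1325, 1404 and 1119 in *Cmah*-null mice. The groups did not overlap on that scale, where array medians ran from 197.2 to 221.1, and they overlapped after normalization. The share of all probes without overlap before normalization was not computed. Under median scaling in place of quantile normalization, its log2 fold change was 1.15 (SE 0.28, limma adjusted p = 0.121), and it passed 1.5-fold with an unadjusted p. That scaling moved the median of the probes detected on all 6 arrays from 0.03 to 0.30, and the share of calls that were higher in *Cmah*-null mice from 47.9% to 96.8%. With the number of beads per probe as a block, described further on, the fold change was 1.03 and also passed. The adjusted p of this probe stayed above 0.05 under every alternative tried.

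*Tecta* (ILMN_2682029, chromosome 9, band 9qA5.1) had low but detected signals on all 6 arrays. The log2 values were 8.02, 7.50 and 7.60 in WT and 7.74, 7.77 and 8.10 in *Cmah*-null mice. The highest arrays were WT replicate 1 and *Cmah*-null replicate 3, the same arrays on which *Coch* and *Otos* were lowest. The log2 fold change was 0.16 (SE 0.18, limma adjusted p = 0.815), with limits of -0.27 and 0.59, and it was 0.42 with neqc and 0.09 under median scaling. It was 0.32 without WT replicate 1, 0.06 without WT replicate 2 and 0.05 without *Cmah*-null replicate 3. *Tectb* (ILMN_2634484, chromosome 19, band 19qD2) was detected on no array, with log2 signals of 7.14 to 7.37.

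For *Otoa*, a single probe of the pair was detected. The probe at base 991 was detected on no array, with log2 signals of 7.12 to 7.26. The probe at base 3468 (ILMN_2735754) was detected on all 6, with 8.16, 8.02 and 8.34 in WT and 8.48, 8.60 and 8.25 in *Cmah*-null mice. *Cmah*-null replicates 1 and 2 were above all WT arrays, and *Cmah*-null replicate 3 lay among the WT arrays. The log2 fold change was 0.27 (SE 0.13, limma adjusted p = 0.630), with limits of -0.05 and 0.59, and it was 0.47 with neqc and 0.42 under median scaling. Its p in the fit to the deposited values was the smallest among the members, 0.084 before adjustment.

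*Oc90* and *Emilin2* had the remaining probes. *Oc90* (ILMN_1217077, chromosome 15, band 15qD1) was dim but detected on all 6 arrays, with log2 signals of 7.51, 7.50 and 7.64 in WT and 7.53, 7.53 and 7.69 in *Cmah*-null mice. The highest array of each genotype was replicate 3. The log2 fold change was 0.03 (SE 0.09, limma adjusted p = 0.935), with limits of -0.18 and 0.24, and it ranged from -0.02 to 0.08 when 1 array was omitted. *Emilin2* (ILMN_2981363, chromosome 17, band 17qE1.3) had 9.18, 9.86 and 9.46 in WT and 9.50, 9.31 and 10.17 in *Cmah*-null mice. *Cmah*-null replicate 3 was the highest array and WT replicate 1 the lowest. The log2 fold change was 0.16 (SE 0.28, limma adjusted p = 0.894), with limits of -0.53 and 0.85. It was 0.51 under median scaling and 0.37 with the bead number block. It was 0.00 without WT replicate 1, -0.09 without *Cmah*-null replicate 3, and 0.34 without WT replicate 2 or without *Cmah*-null replicate 2.

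**Figure D2:**
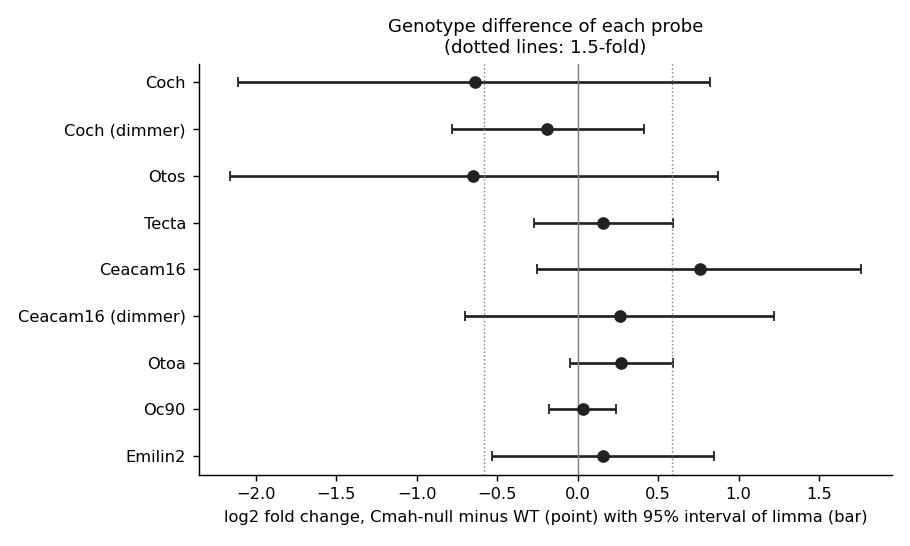
Log2 fold change of each detected probe, *Cmah*-null minus WT (x axis), with the 95% interval of limma as a bar and dotted lines at 1.5-fold. Every interval includes 0, and those of *Coch* (-2.11 to 0.82) and *Otos* (-2.16 to 0.87) are the widest.

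The members varied to very different degrees within a genotype. The within-group SD was 0.90 for *Otos*, 0.87 for the brighter *Coch* probe and 0.59 for the brighter *Ceacam16* probe, against a median of 0.29 over the probes detected on all 6 arrays. Of those probes, 98.2% had a lower SD than *Otos*, 97.8% a lower SD than *Coch* and 88.5% a lower SD than *Ceacam16*. The SD was 0.40 for *Emilin2*, 0.24 for *Tecta*, 0.17 for *Otoa* and 0.09 for *Oc90*, with 68.7%, 38.9%, 21% and 4.55% of probes below. *Oc90* and *Tecta* lay near background, with detection p values of up to 0.048, so their low SDs do not show stable expression. With neqc the standard errors of their fold changes were 0.19 and 0.40, against 0.09 and 0.18 with the deposited values. The range over the 6 arrays was 5.97-fold for *Otos*, 4.23-fold for *Coch* and 3.64-fold for *Ceacam16*. Each member was read by 23 to 54 beads on an array, and the standard error over beads was at most 7.36% of the signal.

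The low and high values recurred on certain arrays. WT replicate 1 was the lowest of the WT arrays in 6 of the 9 detected probes and the lowest of all arrays in 5. WT replicate 3 was the highest of the WT arrays in 6. *Cmah*-null replicate 3 was the highest of its group in 6 and the lowest in 3. *Coch* (brighter probe) and *Otos*, 2 of the 9, were lowest on WT replicate 1 and *Cmah*-null replicate 3 within their groups, and this held for 16.5% of the probes detected on all 6 arrays. The sums of some gene lists also stood apart on these arrays. The summed signal of the myelin list, with 6 of 7 genes detected on all 6 arrays, was 96631 on WT replicate 1, and 37850 to 46701 on the other 5 arrays. That of the list of fibrocytes of the spiral ligament and limbus was 70223 on WT replicate 1 and 53248 on *Cmah*-null replicate 3, and 86360 to 89290 on the other 4. A sum mostly follows its brightest genes, such as decorin (*Dcn*). Of the 9 genes of this list detected on at least 3 arrays, 3 were lowest within their groups on both of these arrays. *Gjb2* was instead highest of the 6 arrays on *Cmah*-null replicate 3 (13.39), and *Car3* was highest on WT replicate 1 (12.12). The summed signal of the fat list, with 6 of 8 genes detected on all 6 arrays, was 18605 on *Cmah*-null replicate 3 and 37109 to 61251 on the others. The part of these tissues in the values of *Coch* and *Otos* was not tested.

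The arrays also differed in the number of beads per probe. The median was 34 on WT replicate 1 and 32 on each of *Cmah*-null replicates 1 and 2. It was 38 or 39 for the other 3 arrays, so that each set held both genotypes. On the arrays with fewer beads, *Coch* was higher in *Cmah*-null mice by 0.93 log2 units (means 11.33 and 10.40), and on those with more beads it was lower by 1.76 (means 10.68 and 12.43). *Otos* was higher by 0.68 in the former set and lower by 2.22 in the latter. Of the 9 detected probes, 5 had differences of opposite sign in the 2 sets. *Ceacam16* was higher in *Cmah*-null mice in both sets by its brighter probe, by 1.51 and 0.56, and *Otoa* was higher by 0.38 and 0.07. Each set held a single array of a genotype, so these differences have no replicate check.

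**Figure D3:**
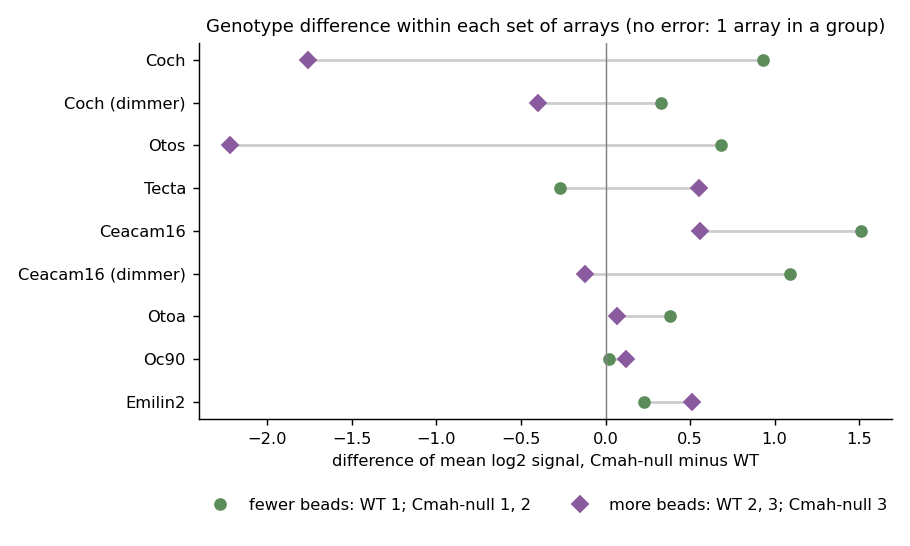
Difference of the mean log2 signal, *Cmah*-null minus WT (x axis), for each detected probe on the arrays with fewer beads per probe (circles) and with more (diamonds). *Coch* and *Otos* lie on opposite sides of 0 in the 2 sets, while the brighter *Ceacam16* probe, *Otoa*, *Oc90* and *Emilin2* lie on the same side.

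The partners of the members were examined through lists of genes, each gene by its brightest probe. Of the 7 collagens of the tectorial membrane, 1 rose and none fell at 1.5-fold with an unadjusted p, with a median log2 fold change of 0.00. Over all probes 1.3% were called higher and 1.41% lower. The gene that rose was *Col9a2*, a chain of collagen IX, with 9.55, 9.66 and 9.41 in WT and 10.12, 10.01 and 10.37 in *Cmah*-null mice. Every *Cmah*-null array was above every WT array, with a log2 fold change of 0.62 (SE 0.12, limma adjusted p = 0.397), and it passed the threshold in 11 of 13 alternatives. *Col2a1*, the main collagen of the membrane and of cartilage, had -0.23 (SE 0.47). *Col9a3* was detected on no array, and *Col11a1* and *Col11a2* on 2 and 1.

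Of 12 other genes of the apical matrix and otoconia, 1 rose and none fell, with a median of 0.04. *Atp2b2*, the calcium pump of hair cell bundles, rose by 0.76 (SE 0.28, limma adjusted p = 0.569), and passed in 5 of 13 alternatives. Its groups overlapped, with 11.02, 10.26 and 10.06 in WT and 11.01, 11.09 and 11.53 in *Cmah*-null mice. *Slc26a4*, the anion exchanger pendrin, had 8.31, 10.30 and 11.02 in WT and 10.07, 10.06 and 10.64 in *Cmah*-null mice, with WT replicate 1 far below the rest as in *Ceacam16*. *Strc*, whose product links hair bundles to the tectorial membrane, was detected on no array, and *Otol1*, the collagen of otoconia, on 1.

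Of 7 relatives of *Emilin2* and elastic fibre genes, 1 fell and none rose. *Fbn1*, fibrillin-1 of microfibrils, had 10.74, 11.24 and 10.70 in WT and 10.21, 10.17 and 10.49 in *Cmah*-null mice. The groups did not overlap. The change was -0.61 on the log2 scale (SE 0.18, limma adjusted p = 0.494), and it became -0.17 under median scaling. *Fbn1* passed the threshold in 7 of 13 alternatives. *Emilin1* had -0.04 (SE 0.20). Of 16 genes related to the members by sequence, such as *Mia1*, the other Ceacam genes and the matrilins, 0 passed in limma, with 0.01 as the median.

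Among the cell types that make or border these matrices, the list of spiral ligament and limbus fibrocytes had 0 of 10 genes past the threshold in limma, with a median log2 fold change of -0.13. In the list of supporting cells, 2 of 11 rose and none fell, with a median of 0.08 that was -0.01 under median scaling. *Prox1*, a transcription factor of pillar and Deiters' cells, rose by 0.73 (SE 0.19, limma adjusted p = 0.453) with 8.29, 8.36 and 8.61 in WT and 9.02, 8.90 and 9.54 in *Cmah*-null mice. Its groups did not overlap, and it passed in 12 of 13 alternatives. *Bmp4*, a secreted growth factor, rose by 0.80 (SE 0.31, limma adjusted p = 0.571), and passed in 8 of them. Of the 14 hair cell genes, 0 passed in limma, and the median was 0.08. Of these 14, 6 were detected on all 6 arrays and 4 on none. The summed signal of this list, background signals included, was 3638 to 4035 in WT and 4258 to 5763 in *Cmah*-null mice, without overlap. Its brightest gene, *Espn*, had 10.20, 10.20 and 10.72 in WT and 10.48, 10.53 and 11.56 in *Cmah*-null mice. The groups overlapped for *Espn*, and the sums were not tested. In the stria vascularis list 1 of 10 rose, *Atp1b2*, a subunit of the sodium pump, by 1.16 (SE 0.38, limma adjusted p = 0.540), and it passed in 7 of the 13 alternatives.

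In the lists of neurons and neighbouring tissues, calls ran in both directions. Of 8 neuron genes 1 fell, *Prph* (peripherin, a filament of type II spiral ganglion neurons), by -1.37 (SE 0.36, limma adjusted p = 0.453). It passed the threshold in 13 of 13 alternatives. Of 8 fat genes 3 fell, with log2 fold changes of -2.11 for *Ucp1*, the uncoupling protein of brown fat, -2.01 for *Cidea* and -1.49 for *Lep*, against 1.41% of all probes called lower. Of the 5 choroid plexus and meninges genes on the array 3 rose, *Kl* by 1.84, *Clic6* by 1.11 and *Folr1* by 0.73, against 1.3% of all probes called higher. *Ucp1*, *Cidea*, *Kl* and *Clic6* passed in 13 of 13 alternatives, and *Lep* and *Folr1* in 6 each. The limma adjusted p values of these 6 fat and choroid plexus genes lay between 0.365 and 0.579, and the part of these tissues in the members' values was not tested.

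Some genes of the fibrocyte, supporting cell and stria lists, chosen after their values were seen, were low on the same arrays as *Coch*. Most genes of these lists were not. List genes detected on at least 3 arrays were counted where WT replicate 1 and *Cmah*-null replicate 3 were the lowest of their groups. These were 3 of 9 fibrocyte genes, 1 of 8 supporting cell genes and 2 of 8 stria genes. The share was 16.5% over the probes detected on all 6 arrays. In lists of other tissues it was 2 of 4 pituitary, 2 of 5 epidermis and 2 of 6 erythroid genes. It was 0 of 10 skeletal muscle and 0 of 7 myelin genes. *Prox1*, *Bmp4* and *Atp1b2* were instead highest on *Cmah*-null replicate 3, at 9.54, 10.77 and 13.29. *Epyc*, epiphycan, a proteoglycan of supporting cells, had 7.28, 9.04 and 9.45 in WT and 8.45, 8.45 and 7.61 in *Cmah*-null mice. *Dct*, a melanin enzyme of the intermediate cells of the stria, had 8.56, 10.10 and 10.62 in WT and 9.66, 9.71 and 7.57 in *Cmah*-null mice. In both, WT replicate 1 and *Cmah*-null replicate 3 were the lowest arrays and WT replicate 3 the highest. Decorin (*Dcn*), a proteoglycan of fibrous tissue, was lowest on the same pair of arrays, with 14.78 and 13.46 against 15.11 to 15.14 on the others. Their genotype differences did not pass the test, with adjusted p values in limma of 0.867 for *Epyc*, 0.801 for *Dct* and 0.812 for *Dcn*.

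**Figure D4:**
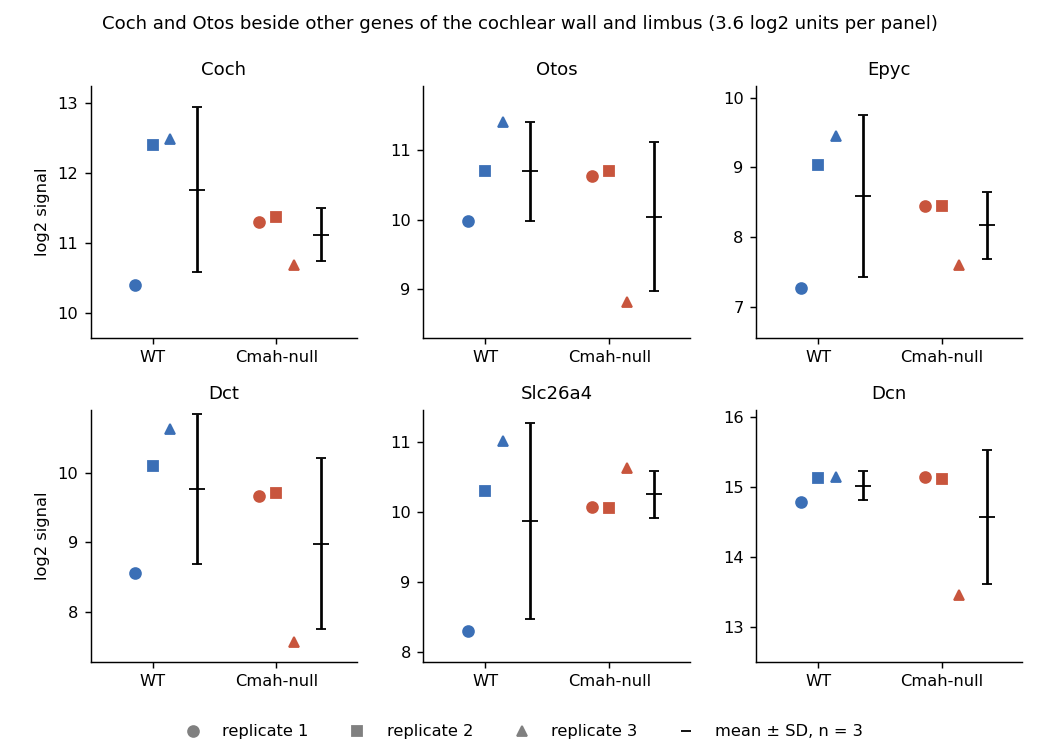
Normalized log2 signal (y axis) of *Coch*, *Otos*, *Epyc*, *Dct*, *Slc26a4* and *Dcn* in WT (blue) and *Cmah*-null (red) cochleae. Each point is 1 array, and the bar is the mean ± SD (n = 3). The genes beside *Coch* and *Otos* were chosen after their values were seen, so their likeness is no independent result. WT replicate 1 and *Cmah*-null replicate 3 are the lowest arrays of their groups in every panel but that of *Slc26a4*, where *Cmah*-null replicate 3 is the highest of its group.

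The genes with the pattern most like the mean of the members were sought among the probes detected on all 6 arrays. The centred log2 values of the 7 members detected on all 6 arrays averaged -0.43, 0.10 and 0.32 in WT and 0.04, 0.08 and -0.10 in *Cmah*-null mice. This mean mostly follows the members with a wide spread, *Coch*, *Otos* and *Ceacam16*, and is not a pattern of every member. *Tecta* was highest on WT replicate 1 (8.02) and *Cmah*-null replicate 3 (8.10), where the mean was lowest. Among 6561 other probes with an SD of at least 0.3, the highest Pearson correlations with this mean over the 6 arrays were those of 2600011E07Rik (r = 0.982), *Casp4* (0.974), *Ncl* (0.974), *Aldh3b1* (0.974) and 1700084C01Rik (0.973). There were 48 probes with a correlation above 0.9. The points share the same 6 arrays, and 2 of these were nearly alike, so the correlations are descriptions. *Ncl*, nucleolin, had 9.22, 10.26 and 10.47 in WT and 9.96, 9.96 and 9.86 in *Cmah*-null mice, lowest on WT replicate 1 as the mean of the members was.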

How the data were processed

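Total RNA of cochlear tissue was hybridized to 6 Illumina MouseRef-8 v2 arrays. As deposited, the raw table gives intensity values (average bead signal, linear, not normalized) with their bead standard error, the count of beads per probe and a detection p-value, exported by the scanner's software per the file headers. The authors deposited log2 values made by quantile normalization, which equalled quantile-normalized log2 raw signals to within 5.0e-07. The fold changes and p-values of the authors' own comparison were not used. Members were taken by symbol, and all their probes were used. The members and gene lists were chosen with earlier results of these data known. Genotypes were compared on the log2 values by lmFit and eBayes of limma (version 3.58.1, R version 4.3.3), two-sided and without covariates, with adjustment over all probes. The test was run on simulated arrays with independent noise for each probe and array. These lack the likeness of *Cmah*-null replicates 1 and 2, so they do not check the test for that feature. Genes named are all members, list genes past the threshold for calls, defining list genes, and the 5 most like the members; others are named as chosen after their values were seen or to describe a list. Missing list symbols were matched by gene ID. The number of arrays limits the precision. Alternatives were neqc (offset 16), median scaling, a detection filter, blocks for replicate and bead number, averaging *Cmah*-null replicates 1 and 2, another variance prior, each array left out, and the brightest probe per gene. Plots used matplotlib 3.10.9 (Python 3.11.15).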

Additional observations from a re-analysis of the deposited data

How the results depend on the processing

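No member probe had an adjusted p under 0.05 in limma under any of the 13 alternatives, where the smallest was 0.121. The count of member probes past 1.5-fold with an unadjusted p was 0, and became 1 (the brighter *Ceacam16* probe) with median scaling, with the replicate number as a block and with the bead number block. It was 0 to 1 over fits without 1 of the arrays. The 1 was *Coch* without WT replicate 1 and *Ceacam16* without WT replicate 3. Over all probes the count was 697. It was 1482 under neqc, 2488 under median scaling and 1728 under the bead number block. Without WT replicate 2 it was 429, the lowest of the fits that omit 1 array, and without WT replicate 3 it was 1037, the highest. With the replicate number as a block, *Ceacam16* kept 0.76 with a standard error of 0.27. Same-numbered arrays did not deviate together, with correlations across probes of 0.02, -0.17 and 0.01, so the numbers were not taken to pair the samples. Signs turned for *Oc90* (-0.01 with median scaling, -0.02 to 0.08 with an array left out), the second *Ceacam16* probe (-0.18 to 0.61) and *Emilin2* (-0.09 to 0.34, and 0.00 without WT replicate 1). The cause of these changes was not tested.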
